A study of Mus musculus with 6 samples.

Results

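Acetylation of histone H3 at lysine 27 (H3K27ac) marks active promoters and enhancers. The regions described here were acetylated at every stage examined in C2C12, a line of mouse myoblasts that stops dividing and fuses into myotubes in culture, and lay under at least 2 times as much peak length after 72 h of differentiation as in proliferation. They were found by merging overlapping H3K27ac peaks of the 3 stages into 112926 regions. Those with a peak in each of the 3 lists, 28908 in number, are called shared. Of the shared regions 6307 (21.8%) met the rule and are called widened. The opposite change, at least 2 times as much length in proliferation as at 72 h, was seen in 926 shared regions (3.20%). The members were chosen by the proliferation and the 72 h lengths, so these lengths are given as a description. The 36 h length entered the rule only through the requirement of a peak, and comparisons of 36 h with proliferation share the proliferation length with the rule.

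The series concerns TAp63, an isoform of the p53-family factor p63, in muscle differentiation, and its labels name no genetic change or agent for any library. Its 6 samples are 1 H3K27ac and 1 input library each for proliferating cells and for cells differentiated for 36 h or 72 h. Each H3K27ac library pooled DNA of 4 ChIP assays, made with 1.2 µg of antibody each, and each stage had 1 such library. No spread between cultures could be measured, so no difference between stages has a test and all intervals cover counting error alone. The muscle identity of the cells was not checked against marker genes, and regions were not assigned to genes, because gene positions on mm9, the build of the peak lists, were not used here. All positions are mm9, counted from 1.

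In H3K27ac ChIP-seq, a peak is a stretch of the genome in which the fragments pulled down with the antibody exceed the local background. The edge of a peak is the point where this excess falls below a threshold, so its length depends on how far the acetylated nucleosomes reach and on how strong the signal is. At active enhancers and promoters the acetylated nucleosomes flank a gap occupied by transcription factors. Broad acetylated stretches are known from genes that define a cell type, and the myogenic factors of the MyoD family bind very many such sites during muscle differentiation.

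The 3 lists held 57101, 89717 and 97144 peaks in order of stage, and the 36 h and 72 h libraries had 1.2 and 1.1 times the ChIP depth of proliferation, as recovered from the peak statistics. Median local background at the peaks was 1.93 times the genome background in proliferation, 1.06 times at 36 h and 1.15 times at 72 h. A higher background raises the bar for a call and so bears on peak length.

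Widened regions were shorter than other shared regions in proliferation and longer later. In proliferation the median length under peaks was 316 bp in widened regions (middle 50% of regions 202 to 556.5 bp, lowest 147, highest 6282) and 794 bp in the other 22601 shared regions. At 36 h the widened regions had a median of 997 bp (581.5 to 1741 bp) and the others one of 845 bp. For 72 h the medians were 1161 bp (721 to 1889 bp) and 869 bp. Their summed length was 2.95, 8.71 and 9.71 Mb over the stages, while that of the other shared regions was 24.1, 26.8 and 27.4 Mb. The widened regions thus held 9.42% of all length under proliferation peaks, 15.6% at 36 h and 15.2% at 72 h.

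**Figure D1:**
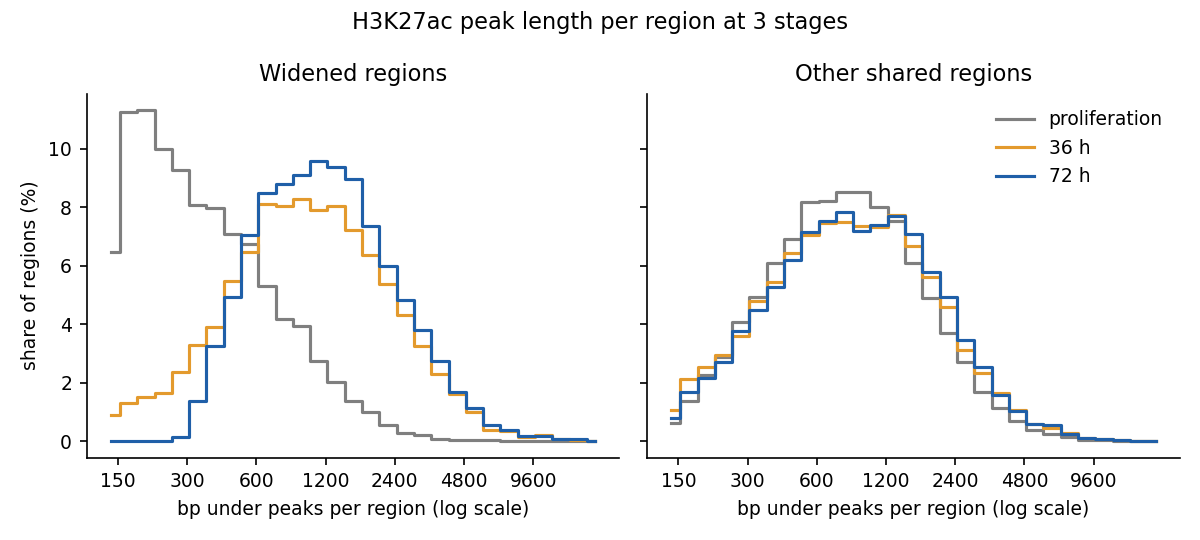
Distribution of the length under H3K27ac peaks per region (x axis, bp, log scale) at each stage, as a share of regions (y axis, %), for the 6307 widened regions (left) and the 22601 other shared regions (right). In widened regions the proliferation curve lies to the left, with a median of 316 bp, and the 36 h and 72 h curves lie together around 997 and 1161 bp, whereas the 3 curves nearly coincide in the other regions.

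Most of the difference was already present at 36 h. In 4656 of the 6307 widened regions (73.8%, 95% Wilson interval 72.7 to 74.9%) the 36 h length was also at least 2 times the proliferation length. Over all shared regions this was the case in 20.0%, and over the other shared regions in 4.97%. The 36 h length exceeded that of proliferation in 95.6% of widened regions, against 70.2% of all shared regions. The median widened region had 85.5% of its 72 h addition by 36 h (middle 50% of regions 56.8 to 106%). The converse at 36 h, at least 2 times as much length in proliferation, was found in 41 widened regions (0.650%) and in 6.01% of all shared regions. Short proliferation peaks, which the rule favours, raise the 36 h ratio as well as the 72 h ratio.

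The 36 h lengths of widened and other regions also differed within classes of proliferation length. Among shared regions with under 300 bp in proliferation, 76.3% of the widened, 21.4% of the other and 51.7% of all regions had at least 2 times that length at 36 h. Between 300 and 600 bp the shares were 70.2%, 6.22% and 21.9%. Between 600 and 1200 bp they were 71.5%, 2.36% and 10.7%, and from 1200 bp upward 79.1%, 0.927% and 5.01%. The other regions are those that failed the rule at 72 h, which widens their distance from the members. The share among widened regions thus stayed between 70.2% and 79.1% over all 4 classes, while that of the other regions was lower in each longer class.

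The course from 36 h to 72 h differed among the widened regions. In 2666 of them (42.3%) the 36 h length was at least 2 times that of proliferation and did not exceed that of 72 h, with medians of 311.5, 1119 and 1392 bp over the stages. In 1990 (31.6%) the 36 h length was the longest of the 3, with medians of 297, 1331.5 and 1117.5 bp. Over all shared regions the 36 h length exceeded that of 72 h in 44.2%. In 1387 (22.0%) the 36 h length was from 1 to below 2 times that of proliferation, with medians of 350, 559 and 908 bp. The remaining 264 (4.19%) were shorter at 36 h than in proliferation, with medians of 312, 200 and 831.5 bp. The 72 h length was at least 2 times the 36 h length in 637 widened regions (10.1%), against 7.14% of all shared regions. The reverse, at least 2 times as much length at 36 h as at 72 h, was found in 43 (0.682%), against 3.35%. The rule asks for a long 72 h peak, which favours the first and disfavours the second.

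The largest ratios came from regions with a very short peak in proliferation. The ratio of 72 h to proliferation length was from 2 to below 3 in 3302 widened regions (52.4%), with a median proliferation length of 412 bp. It was from 3 to below 5 in 1844 regions (285 bp), from 5 to below 10 in 909 (216 bp) and at least 10 in 252 (182 bp). The shortest peak of any list was 147 bp. Under 200 bp in proliferation were 1520 widened regions (24.1%) and 719 of the other shared regions (3.18%). Their median 72 h lengths were 656 and 241 bp. Wide regions were also found among the widened ones, since 374 had 1200 bp or more in proliferation, with medians of 1566.5, 3823 and 3943.5 bp over the stages. The share of shared regions that widened was 55.2% below 300 bp, 24.6% from 300 to 600 bp, 12.1% from 600 to 1200 bp and 5.22% above. Length in proliferation entered the rule, which favours short regions.

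There was no gap in the ratios at the threshold of the rule. Ratios from 1.9 to below 2 were found in 649 shared regions, with median lengths of 496, 855 and 962 bp over the stages, and ratios from 2 to below 2.1 in 527, with medians of 453, 793 and 934 bp. On the inner side, a region of chromosome 10 (127533820 to 127535600) had exactly 2 times its proliferation length, with 785, 1636 and 1570 bp over the stages. The 4 others just inside lay on chromosomes 8, 5, 9 and 3 and had 740 to 1320 bp at 72 h. On the outer side, the region on chromosome 1 from 167122284 to 167125237 had 1442, 2384 and 2883 bp. The 4 others just outside lay on chromosomes 9, 14, 17 and 6 and had 1215 to 3833 bp at 72 h. The bands on either side of the threshold thus had similar median lengths at each stage.

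Most new length lay outside the proliferation peaks of a region, and less of it between them. Of the proliferation length in widened regions, 97.7% was also under 72 h peaks. Of the 6.83 Mb under 72 h peaks that were not under proliferation peaks, 86.9% lay outside the outermost proliferation peaks and 13.1% in gaps between them. The corresponding shares of the 6.09 Mb in other shared regions were 71.4% and 28.6%. Regions with 1 proliferation peak have no such gap. The 72 h peaks reached past the proliferation peaks on both sides in 5586 widened regions (88.6%) and on 1 side in 719 (11.4%). In 2 regions the new length lay in gaps alone. Both sides were passed in 40.6% of the other shared regions. The rule requires added length, which raises the share in widened regions. The median ratio of 72 h to proliferation length was 1.14 in the others. In widened regions the longer flank had a median of 550 bp and the shorter flank 116 bp. The longer flank held 80.3% of the flanking length in the median widened region. In the other shared regions the median flanks were 94 and 0 bp, and the longer flank held 100% in the median. Along the chromosome, 2.99 Mb of the flanking length in widened regions lay on the side of lower and 2.94 Mb on the side of higher coordinates. At 36 h the extension was smaller, with both sides passed in 76.9% of widened regions and median flanks of 459 and 79 bp.

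Around the strongest proliferation summit of widened regions, the cover by proliferation peaks showed low shoulders on both sides. A summit is the position of highest signal in a peak. In proliferation, the share of widened regions under a peak was 100% at the summit by construction, had a low of 17.2% at 350 bp on average of both sides and came up to 19.7% at 550 bp. At 500 bp from that summit, 19.5% of widened regions were under a peak in proliferation, 59.5% at 36 h and 68.0% at 72 h. At 1 kb the shares were 11.9%, 39.3% and 44.5%, and at 2 kb they were 6.45%, 21.1% and 23.5%. The others had shares of 50.2%, 56.2% and 58.1% at 500 bp. Differences were still seen at 5 kb, where 5.86% of widened regions had a peak in proliferation, 14.5% at 36 h and 16.1% at 72 h. The shares for the others were 7.17%, 10.3% and 10.7%. Peaks of the same region and of neighbouring regions are both counted in these shares.

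**Figure D2:**
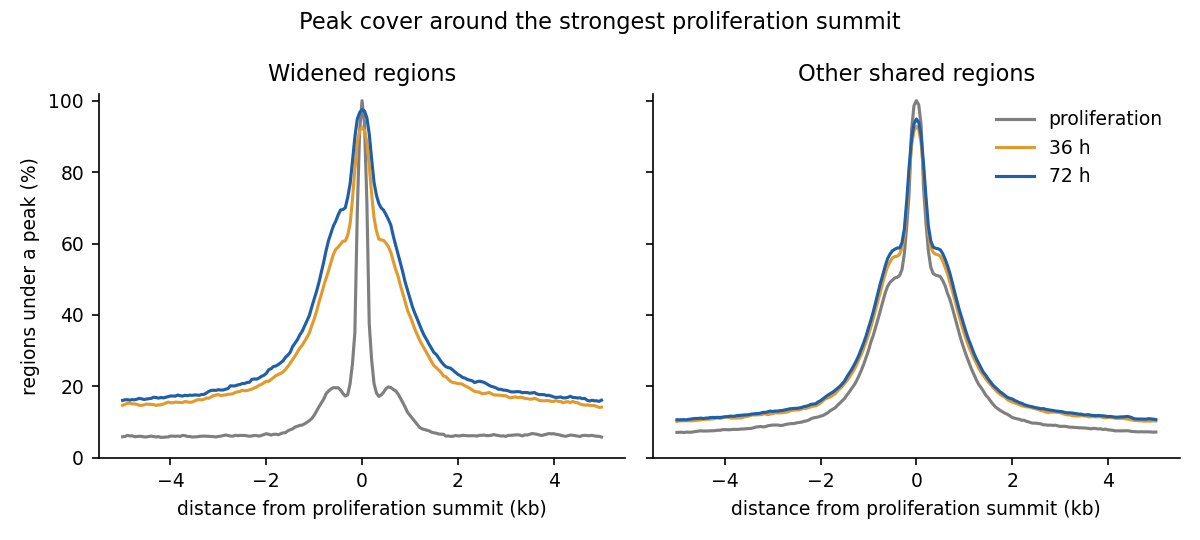
Share of regions under an H3K27ac peak (y axis, %) at each distance from the strongest proliferation summit (x axis, kb), by stage, for widened (left) and other shared regions (right), with peaks of neighbouring regions included. In widened regions the proliferation curve is a narrow spike with low shoulders, at 19.5% 500 bp away, and the 36 h and 72 h curves stand at 59.5% and 68.0% there, while the 3 curves run close together on the right.

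The strongest summits of the stages lay close together. Between proliferation and 72 h their distance in widened regions was 92 bp in the median (middle 50% of regions 34.5 to 276 bp), and 69.1% lay within 200 bp of each other. In the other shared regions the median was 68 bp, with 76.2% within 200 bp. Between 36 h and 72 h the median distance in widened regions was 73 bp. Summits more than 1 kb apart between proliferation and 72 h were found in 263 widened regions (4.17%) and in 2.49% of the others. The strongest 72 h summit lay inside a proliferation peak in 69.6% of widened regions and in 94.8% of the others. The proliferation peaks of widened regions are shorter by the rule, which lowers the first share.

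Where proliferation had several separate peaks, 72 h often had a single one. Of the widened regions 1731 (27.4%) held 2 or more proliferation peaks, and 1093 of these (63.1%, interval 60.8 to 65.4%) held 1 peak at 72 h. At 36 h a single peak was present in 720 of the 1731 (41.6%, 39.3 to 43.9%). In the other shared regions with several proliferation peaks the shares were 60.5% at 72 h and 54.8% at 36 h. The widened regions held more separate peaks at 36 h than at either other stage, with 9577 peaks at 36 h, 8826 in proliferation and 8196 at 72 h. These peaks covered 8.71 Mb at 36 h, 2.95 Mb in proliferation and 9.71 Mb at 72 h. For their length, peaks were thus most numerous in proliferation, where the rule asks for little length. The other shared regions also had most peaks in proliferation, with 33965, 30241 and 28942 over the stages. Those peaks covered 24.1, 26.8 and 27.4 Mb. A single peak made up 72.6% of widened regions in proliferation, 63.6% at 36 h and 76.1% at 72 h. In the other shared regions these shares were 66.0%, 74.4% and 77.9%, without a low at 36 h.

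Summits of widened regions were weak in proliferation and similar to those of other shared regions later. From the fold and p of each peak, the number of fragments over the summit was recovered. Before scaling for depth, the median widened region had 19, 34 and 39 summit fragments over the stages. In the other shared regions they were 33, 35 and 37. Summit height is used below for the fragments above the local background, scaled to the depth of the proliferation library. Its median in widened regions was 16.7 fragments in proliferation (middle 50% of regions 13.3 to 23.0), 26.9 at 36 h (17.7 to 40.6) and 33.1 at 72 h (22.7 to 49.1). In the other shared regions it was 30.0, 26.9 and 31.8. The widened regions thus stood lower in proliferation and level with the others at 36 h. Short proliferation peaks, which the rule favours, also had low summits. Under 300 bp in proliferation, the median proliferation heights were 14.0 fragments in widened and 15.5 in other regions. From 300 to below 600 bp they were 18.5 and 22.0. They were 23.5 and 31.6 from 600 to below 1200 bp, and 34.3 and 45.6 from 1200 bp upward. The strongest peak of every region was also ranked by fold among all peaks of its own stage. In widened regions the median rank was above 43.1% of peaks in proliferation, 77.0% at 36 h and 80.1% at 72 h. Over all shared regions the medians were 68.7%, 77.0% and 79.0%, and in the other shared regions 74.6%, 77.6% and 78.7%. By rank, too, the widened regions stood lower in proliferation and close to shared regions in general later.

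Height and length went together, though some regions widened at nearly constant height. The median ratio of 72 h to proliferation height was 1.78 in widened regions and 1.08 in the other shared regions, and that of 36 h to proliferation was 1.46 and 0.957. A 72 h height at least 2 times that of proliferation was found in 2546 widened regions (40.4%), against 13.3% of all shared regions. At 36 h such a height was found in 1558 (24.7%), against 7.69%. Among shared regions with a height ratio of 3 or more, 86.4% widened, and from 2 to below 3, 58.5% did. The share was 34.6% from 1.5 to below 2 and 20.5% from 1.25 to below 1.5. Among the 10277 shared regions whose 72 h height was 0.8 to below 1.25 times that of proliferation, 1102 (10.7%) widened. The share over all shared regions was 21.8%. The 1102 had median heights of 18.5, 18.6 and 20.0 fragments over the stages and median lengths of 271.5, 666.5 and 789 bp. A further 136 regions widened with a 72 h height below 0.8 times that of proliferation. Height and length come from the same libraries, so the height ratios describe the same contrast as the rule.

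**Figure D3:**
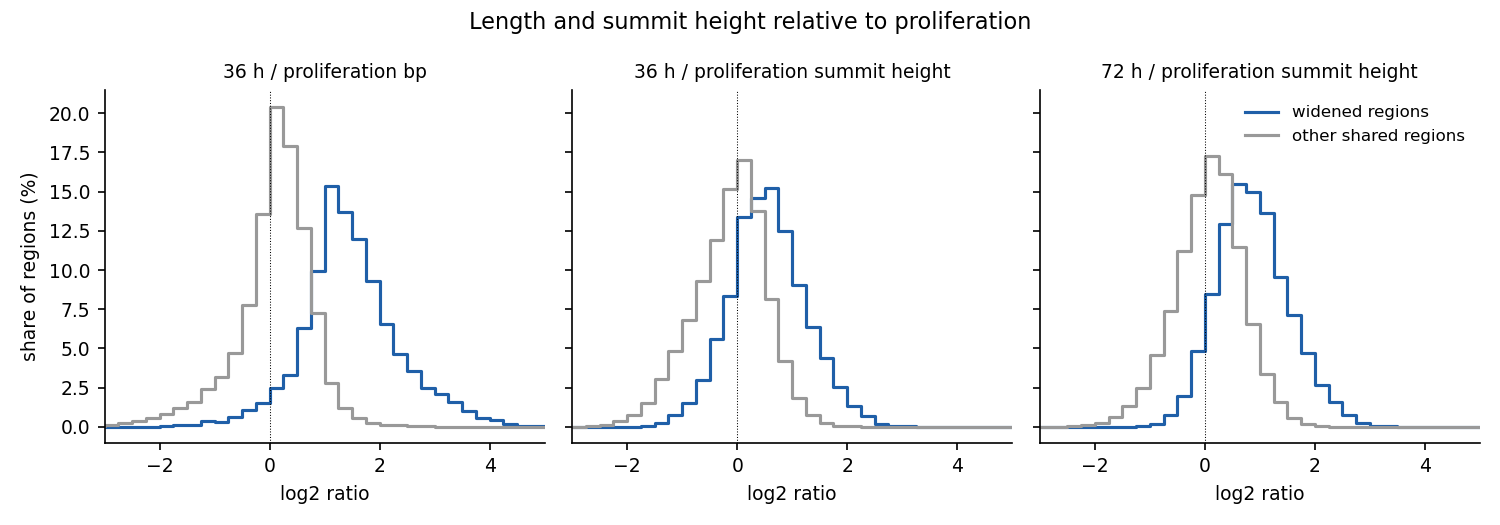
Distributions of the log2 ratio of 36 h to proliferation length (left), of 36 h to proliferation summit height (middle) and of 72 h to proliferation summit height (right), as a share of regions (y axis, %), for widened (blue) and other shared regions (grey), where 0 means no difference. The widened regions lie to the right in all 3 panels, with median ratios of 2.63 (length at 36 h), 1.46 and 1.78 (heights), and overlap with the other regions more in height than in length.

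Local background at the summits was compared between widened and other shared regions. Its median in proliferation was 1.75 times the genome background at widened regions and 1.98 times at the other shared regions. At 36 h it was 1.07 and 1.06 times, and at 72 h 1.22 and 1.26 times. The share of shared regions that widened was 30.1% where the proliferation background was under 1.1 times the genome background, 25.7% from 1.1 to below 1.5, 21.5% from 1.5 to below 2, 17.8% from 2 to below 3 and 14.7% from 3 upward. The classes also differed in proliferation length, which the rule uses: the median of the regions that did not widen was 574 bp in the lowest and 912.5 bp in the highest class. The median lengths of the widened regions under 1.1 times were 264, 924 and 1097 bp over the stages. The part that local background and enrichment of the libraries had in the widening was not tested.

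**Figure D4:**
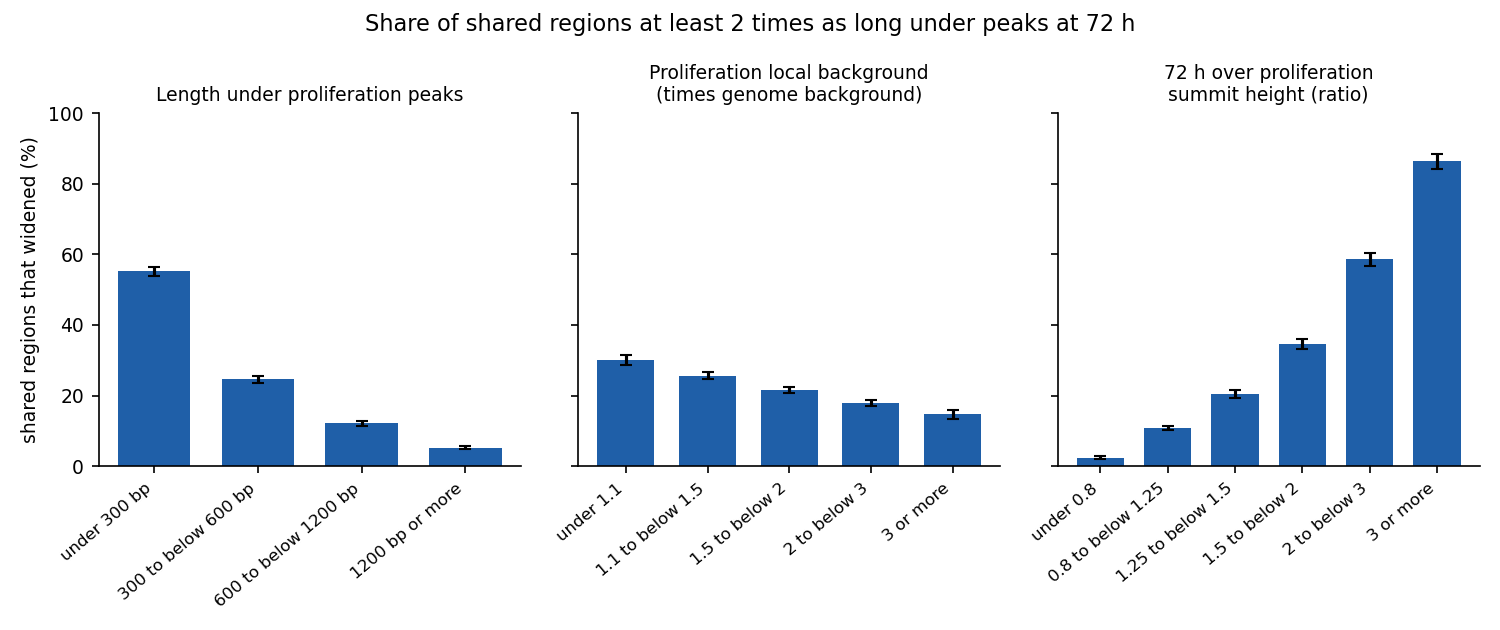
Share of shared regions that widened (y axis, %, from 0) by length under proliferation peaks (left), by proliferation local background relative to the genome background (middle) and by the ratio of 72 h to proliferation summit height (right), with bars for the share and error bars for the 95% Wilson interval. The share runs from 55.2% to 5.22% with proliferation length, from 30.1% to 14.7% with background, and from 2.40% to 86.4% with the height ratio.

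The 10 regions with the most added length were all at least 2 times their proliferation length by 36 h. This was so for 73.8% of all widened and 20.0% of all shared regions. The 10 were picked by added length, which uses the lengths of the rule. The first, on chromosome 8 from 75099940 to 75113994, had 147, 12565 and 13984 bp over the stages, in 1, 6 and 2 peaks. Its summit fragments were 11, 81 and 84, and the extension was nearly even, with 7175 bp on one side and 6662 bp on the other. The proliferation peak had the minimum length of the list, so the ratio of 95.1 rests on a call of the smallest size.

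On chromosome 6, the region from 90649094 to 90664268 had 1956, 14751 and 15081 bp over the stages. Its 7 proliferation peaks became 4 at 36 h and 2 at 72 h, and 9591 bp of the new 72 h length lay between the proliferation peaks. On chromosome 13, the region from 49444336 to 49457856 had 1889, 13205 and 13362 bp, in 6, 5 and 3 peaks. In both, scattered proliferation peaks lay within a later nearly unbroken stretch.

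On chromosome 12, the region from 8440491 to 8452231 had 1220, 11629 and 11679 bp, with 17, 96 and 115 summit fragments. It extended almost wholly to one side, by 8051 bp against 190 bp. On chromosome 14, the region from 41765616 to 41780187 had 5133, 14388 and 14268 bp, in 13, 3 and 4 peaks. A second region of chromosome 6, from 97157850 to 97170910, had 3931, 12427 and 13045 bp and extended by 7619 bp on one side and 827 bp on the other. These regions show the 2 forms side by side, with new length in gaps on chromosomes 13 and 14 and in a flank on chromosome 12 and in the second region of chromosome 6.

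**Figure D5:**
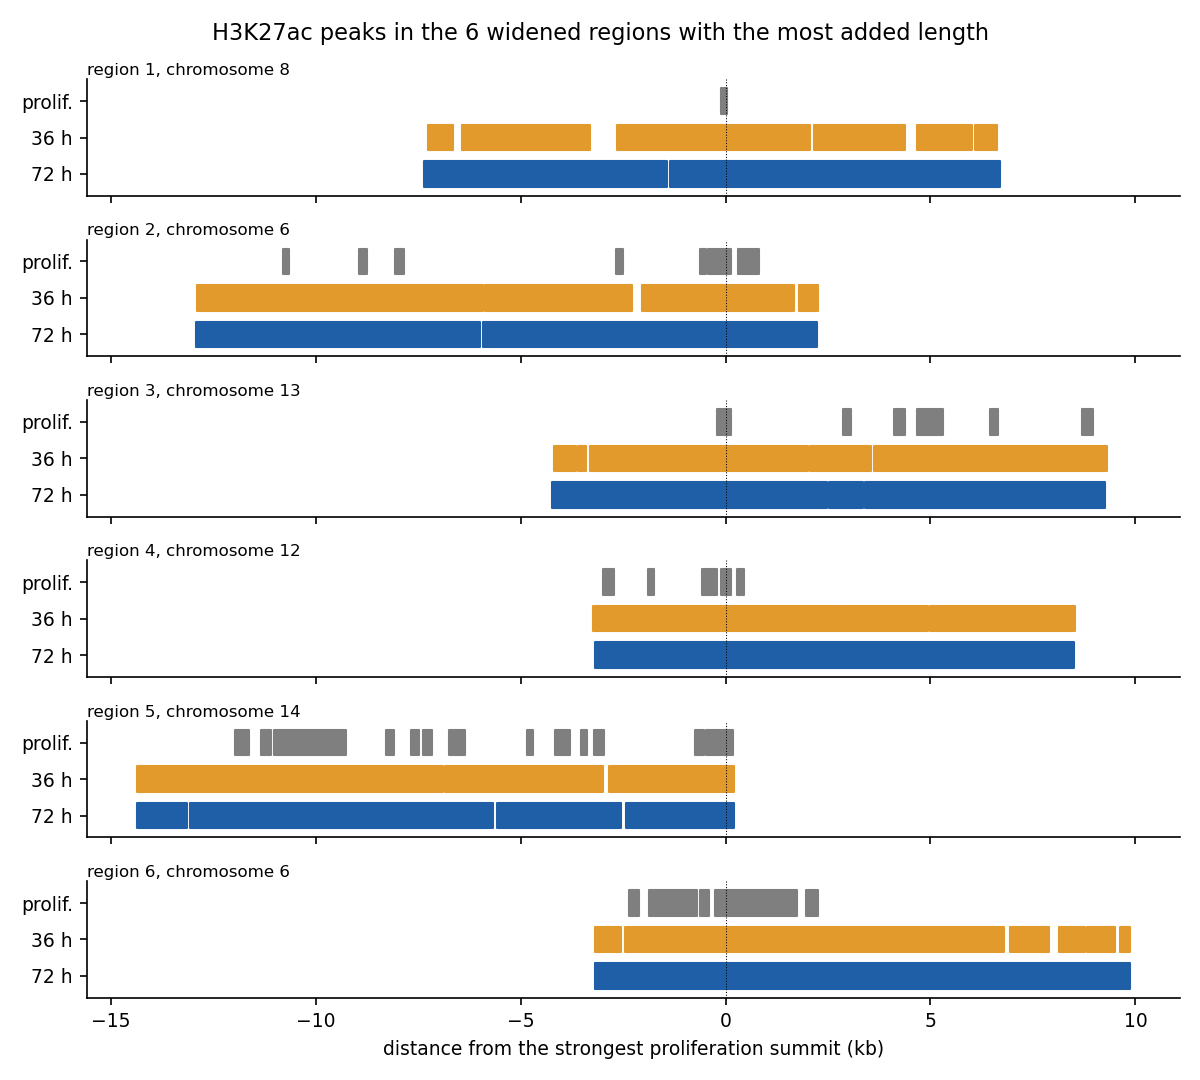
H3K27ac peaks (bars) of proliferation, 36 h and 72 h in the 6 widened regions with the most added length, drawn to scale by distance from the strongest proliferation summit (x axis, kb). Region 1, on chromosome 8, has 1 proliferation peak of 147 bp inside 13984 bp of 72 h peaks, and regions 2, 3 and 5 have 7, 6 and 13 proliferation peaks spread along the later stretch.

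The region on chromosome 10 from 80869334 to 80884704 was both among the 10 with most added length and the longest widened region in proliferation. It had 6282, 14314 and 15248 bp over the stages, in 14, 8 and 2 peaks, and 8274 bp of the new length lay between proliferation peaks. The remaining 3 of the 10 were regions of chromosome 2. From 155696360 to 155705573 the lengths were 445, 8379 and 9145 bp, nearly all of it new on one side (8167 bp). From 93284588 to 93295145 they were 474, 10514 and 9133 bp. From 119965069 to 119975568 they were 1902, 10254 and 10322 bp, with no extension on the side of higher coordinates. Within the 72 h list, the strongest peaks of the 10 regions had folds of 15.8 to 31.4, above 91.9% to 99.5% of peaks. The added length was unevenly spread, but most of it lay outside these regions. The 10 together held 1.51% of the 6.76 Mb added. The 631 of 6307 widened regions with the most added length held 31.1%.

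The widened regions with the strongest 72 h peaks had folds of 38.9 to 45.4, above at least 99.9% of the 72 h peaks. The highest lay on chromosome 1 from 89108921 to 89112728. It had 1573, 3432 and 3723 bp over the stages, with 123, 143 and 151 summit fragments, and widened with a summit height 1.15 times that of proliferation. The second, on chromosome 10 from 117145965 to 117149361, had 1550, 3120 and 3397 bp and 99, 143 and 140 summit fragments. The third, on chromosome 2 from 127412331 to 127413785, had 707, 853 and 1455 bp and so widened after 36 h. In these 3 regions the summit was strong in proliferation, and 72 h heights were 1.15, 1.31 and 1.32 times those of proliferation. Their lengths were 2.37, 2.19 and 2.06 times. The 72 h fold, by which they were chosen, was 45.4, 44.6 and 43.3, against 20.9, 22.5 and 19.6 in proliferation. Local background was 2.97, 1.98 and 2.33 times the genome background in proliferation, and 1.11, 1 and 1 times at 72 h.

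Among the others of this set, 1 was weak in proliferation. On chromosome 8, the region from 126405485 to 126408834 had 393, 3167 and 3321 bp, with 22, 100 and 135 summit fragments. Its fold in proliferation exceeded 3.04% of that list, and its proliferation background was 3.96 times the genome background. On chromosome 6, the region from 125094741 to 125105052 had 3328, 10151 and 10088 bp, with 32, 128 and 129 summit fragments, and its proliferation fold exceeded 82.6% of that list. A region of chromosome 11, from 76304776 to 76309581, had 1681, 4371 and 4801 bp and 74, 131 and 132 summit fragments, and its proliferation fold exceeded 97.9% of the list. The other 4 lay on chromosome 14 from 70572314, chromosome 1 from 53838732, chromosome 4 from 11081937 and chromosome 12 from 113909486. Their proliferation folds exceeded 86.1%, 95.9%, 95.3% and 99.1% of the list, and their 72 h heights were 1.47, 1.82, 1.98 and 2.01 times those of proliferation. In 8 of the 10 the 36 h length was at least 2 times that of proliferation, against 73.8% of all widened regions.

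The widened regions that were longest in proliferation had 4917 to 6282 bp there and 10092 to 15248 bp at 72 h. Besides the regions on chromosomes 10 and 14 already described, a region on chromosome 19 from 5832856 to 5846527 had 6024, 12738 and 13592 bp, with 87, 123 and 138 summit fragments. A region of chromosome 11, from 79524342 to 79535326, had 5078, 10766 and 10512 bp and extended to one side only, by 4684 bp. A second region of chromosome 14, from 26334280 to 26344425, had 4917 bp in 11 peaks, 9536 bp in 5 peaks and 10092 bp in 1 peak. Each of the 5 had fewer peaks at 72 h than in proliferation.

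Widened regions lay closer than the other shared regions to regions with a peak at both later stages and none in proliferation. Such regions lay within 5 kb of 3070 widened regions (48.7%, interval 47.4 to 49.9%) and of 26.8% (26.3 to 27.4%) of the other shared regions. A missing peak means no call, not a measured lack of acetylation. The sets were not matched for proliferation length or height. The share over all shared regions was 31.6%. Regions with a peak in proliferation alone lay within 5 kb of 5.42% of widened, 19.2% of the other and 16.2% of all shared regions. Another widened region lay within 12.5 kb of 2275 widened regions (36.1%), compared with 22.6% of the others and 25.6% of all shared regions. Where the nearest shared region was within 12.5 kb, it was widened for 35.1% of widened regions and for 16.4% of the others, while 20.4% was the share over all. Neighbouring regions come from the same 3 libraries and may be parts of 1 acetylated domain, so they are not independent.

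Joined across gaps of up to 12.5 kb, the widened regions fell into 4032 single regions and 971 groups of 2 or more, with 24 groups of at least 5. The largest group had 8 widened regions of 11 shared ones on chromosome 11 from 117184806 to 117219602, with 3413, 9260 and 10271 bp under their peaks over the stages. On chromosome 12 from 114263503 to 114282425, all 6 shared regions were widened, with 4928, 15823 and 16053 bp. On chromosome 2 from 173238764 to 173276013, 6 of 7 were widened, with 4974, 15852 and 16027 bp. The remaining groups of 6 lay on chromosome 5 from 125616645, chromosome 12 from 87309043, chromosome 10 from 80629600 and chromosome 7 from 119940056. They had 1855 to 3755 bp in proliferation and 8124 to 13976 bp at 72 h. In all 7 groups the 36 h length was nearer to the 72 h than to the proliferation length.

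Widened regions were spread over the genome. Among the 20 chromosomes with at least 100 shared regions, the share that widened ran from 19.1% on chromosome 3 (interval 17.2 to 21.0%) to 24.6% on chromosome 18 (22.0 to 27.5%), around 21.8% overall. On the X chromosome it was 21.1%. Sequences not placed on these chromosomes held 13 widened regions.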

How the data were processed

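H3K27ac was measured by ChIP-seq in 3 libraries, 1 per stage. Per the submitters' processing notes, BWA, MACS2 and deepTools were used with the build mm9. Their versions and parameters were not stated there or in the labels. The authors deposited 1 narrowPeak list per library, with a fold of ChIP over background (a ratio), a −log10 p-value, a −log10 q-value and a score for every peak. The deposited score, which is 10 times the −log10 q cut to a whole number for nearly all peaks, was not used. The inputs entered only through the background in these statistics.

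Peaks overlapping by at least 1 bp were merged and lengths summed per list with Python 3.11.15, pandas 2.3.3, NumPy 2.4.6 and SciPy 1.17.1, and figures were drawn with matplotlib 3.10.9. Summit fragments and local background were solved from the fold and −log10 p with 1 scale factor per library. The solution matched the deposited p to a relative 0.0003 for 100% of peaks of every list. It assumes the formulas MACS2 uses, since read totals were not used here. At widened regions the lowest recovered background was 0.0587 times the genome background at 36 h and 1.00 times at the other stages. A match to p does not show that every recovered value is right. Merging and recovery were tested on simulated data. Intervals are 95% Wilson intervals and cover counting error only. The strength of a peak was ranked only within its own list.

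Regions named in the text are the 10 with the most added length, the 10 with the highest 72 h fold, the 5 longest in proliferation, the 5 nearest the threshold on each side and the groups of 6 or more. The groups were chosen after their values were seen. Members and rules were chosen with earlier results of these data known. Genes, motifs and region sequences are left out because no mm9 genome or annotation was used here.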

Additional observations from a re-analysis of the deposited data

How the results depend on the processing

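The number of widened regions was 10821 with a threshold of 1.5 times and 3005 with 3 times. It was 1857 among regions with at least 500 bp in proliferation, and 4360 to 6257 under the other 6 planned settings, which were merging across 1 kb, a −log10 q of at least 5, lists of equal number, span in place of summed length, at least 500 bp added and a merging overlap of 100 bp. Among settings added after seeing the data, 2705 of 9900 shared regions (27.3%) widened with a proliferation background under 1.5 times the genome background. With a height ratio of 0.8 to below 1.25 (72 h to proliferation), 1102 of 10277 (10.7%) widened. With 36 h in place of 72 h the number was 5779 of 28908 (20.0%). The widened numbered 6.81 times the narrowed regions, and 7.01 to 9.77 times with merging across 1 kb, the q limit or equal lists. The share of widened regions at least 2 times as long at 36 h was 49.5% (1.5 times), 89.2% (3 times), 76.0% (span), 72.5% (500 bp in proliferation), 80.1% (500 bp added), 75.5% (low background) and 60.8% (like height). The median ratio of 36 h to 72 h length, 0.901, was 0.915 (1.5 times), 0.865 (1 kb), 0.932 (span), 0.931 (500 bp in proliferation), 0.909 (500 bp added), 0.890 (low background) and 0.875 (like height). The median added length, 779 bp, was 603 bp (1.5 times), 1051 bp (3 times), 1235 bp (1 kb), 951 bp (q limit), 842 bp (equal lists), 726 bp (span), 1330 bp (500 bp in proliferation), 1041.5 bp (500 bp added), 816 bp (low background) and 491.5 bp (like height). These settings select other sets of regions, and the cause of each shift was not tested. Summit fragments and background stayed within their median's interval with the peak of highest −log10 q. The alternatives on gene starts and motifs were not run. No paired analysis was possible because each stage had 1 library. Depth limits the precision of proliferation values, with a median of 19 summit fragments in widened regions.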
